A study of Mus musculus with 6 samples.

Results

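Fibrous and network-forming collagens, and the enzymes that modify, fold, trim and cross-link them, were examined in bulk RNA from inguinal white adipose tissue (iWAT), the subcutaneous fat depot of the mouse flank. Members were taken by gene symbol: every collagen alpha chain in the count table except *Col4a1*, *Col4a2* and *Col18a1*, with the lysyl oxidases *Lox* and *Loxl1* to *Loxl4*, the prolyl 4-hydroxylase subunits *P4ha1* to *P4ha3*, the lysyl hydroxylases *Plod1* to *Plod3*, the collagen chaperone *Serpinh1* and the procollagen C-proteinase enhancers *Pcolce* and *Pcolce2*. This gave 47 of 19509 symbols, made up of 34 collagen chains and 13 processing genes. Libraries labelled AdKO came from mice with both alleles of the lincRNA *Lexis* floxed and an *Adipoq*-driven Cre, so that deletion was limited to cells using the adiponectin promoter. Libraries labelled AdWT came from Cre-negative floxed mice, so the floxed allele was shared by both groups. All mice were on Western diet for 12 weeks, and each group had 3 biological replicates, with no number of pooled animals given. The comparison asks whether loss of *Lexis* in adipocytes went with a different collagen program in the depot.

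The total count was between 14470542 and 17882713 per library, so 3 counts, taken as the upper limit that a count of 0 allows, were worth 0.168 to 0.207 CPM, the count scaled to a common library size. Of the 16 study probes against *Lexis* read from its supplement, 9 matched exactly within the lincRNA gene *4930412L05Rik*, with counts of 8, 9 and 8 for AdWT and 21, 11 and 13 for AdKO. Counts at this locus were few and were not lower in AdKO, and because the table does not separate its exons they do not check the deletion. *Adipoq*, the defining adipocyte gene, was at 4677 to 7582 CPM in every library. Epithelial markers stood apart in 2 libraries: the summed level of 5 epithelial markers was 20.27 CPM in AdWT replicate 3 and 47.95 CPM in AdKO replicate 3, and 0.894 to 1.44 CPM in the other 4.

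Collagens are secreted proteins built of alpha chains that wind around each other in a triple helix. Fibrillar collagens form the banded fibres of connective tissue, with type III beside type I in soft organs and type V inside the same fibres. Type VI collagen forms beaded filaments around cells and is abundant around adipocytes, and FACIT collagens sit on the surface of fibrils. Network collagens form sheets under epithelia, vessels and muscle fibres. Inside the cell prolyl and lysyl hydroxylases modify the chains and *Serpinh1* holds the folded helix. Outside it the propeptides are cut off, a step that the *Pcolce* proteins enhance, and lysyl oxidases then cross-link the fibres. In fat, fibroblasts and progenitors make most of this matrix, and adipocytes contribute type VI chains.

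The helix is visible in the genes, because glycine occupies 1 position in every 3 and all glycine codons begin with GG. All 33 collagen chains with an annotated coding sequence held an unbroken run of at least 10 codon triplets that each start with a GG codon, against 0 of 13 processing genes and 94 of 22594 protein-coding gene names of the annotation (0.416%). Runs were 217 to 344 triplets long in fibrillar chains, 42 to 87 in beaded filament chains and 60 to 61 in short chain network collagens. Fibrillar genes held 24 to 33 coding exons of exactly 54 bases, whereas the short chain network collagens held 0. The stretches below, from the best counted chains and from *Col6a6* and *Col8a1*, are shown as examples of the repeat. They were read from GENCODE vM1 transcripts on NCBIM37 (mm9), 5′ to 3′ on the gene's strand, and capitals mark the glycine codon that opens each triplet of codons. The *Col3a1* stretch is exon 6 of 51 at chr1:45382205-45382258 on the plus strand, and that of *Col5a1* is exon 11 of 66 at chr2:27814005-27814067 on the plus strand. The *Col5a2* stretch is exon 6 of 54 at chr1:45491737-45491790, that of *Col6a1* exon 9 of 35 at chr10:76182368-76182421, that of *Col6a2* exon 6 of 28 at chr10:76074693-76074746 and that of *Col6a6* exon 13 of 37 at chr9:105662381-105662434, all on the minus strand. The *Col8a1* stretch, at chr16:57628152-57628205 on the minus strand, opens a run that lies whole within the gene's last exon, 4 of 4.
Col3a1: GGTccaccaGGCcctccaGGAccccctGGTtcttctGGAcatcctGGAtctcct
Col5a1: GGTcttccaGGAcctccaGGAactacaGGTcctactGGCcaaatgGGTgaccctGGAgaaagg
Col5a2: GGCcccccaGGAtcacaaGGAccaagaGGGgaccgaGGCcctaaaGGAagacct
Col6a1: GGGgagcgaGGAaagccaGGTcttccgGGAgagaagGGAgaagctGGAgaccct
Col6a2: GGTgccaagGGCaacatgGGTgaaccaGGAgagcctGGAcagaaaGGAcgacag
Col6a6: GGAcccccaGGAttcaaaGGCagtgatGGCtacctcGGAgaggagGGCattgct
Col8a1: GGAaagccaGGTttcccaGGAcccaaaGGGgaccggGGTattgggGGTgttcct
Each exon shown is the first of its transcript to consist wholly of such triplets. The *Col8a1* stretch is the first 54 bases of its longest run. The shared frame was thus set by the choice of stretches, with 6 triplets in 54 bases and 7 in the 63 bases of *Col5a1*. *Col8a1* holds a further glycine codon inside a triplet, left in lower case, and so 7 in all. The marked glycine codon varied within each stretch, and GGT, GGC, GGA and GGG all occurred over the stretches together. The codons between the glycine codons differed from chain to chain.

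Of the 47 members, 38 had at least 1 count and 24 had enough counts to be tested, namely 16 collagen chains and 8 processing genes. The other 14 with counts had at most 62 over all 6 libraries, the highest being *Col10a1*, a short chain collagen of growth cartilage, with 9, 10 and 6 counts in AdWT and 8, 11 and 18 in AdKO. The 9 members at 0 in every library were *Col11a1*, *Col19a1*, *Col25a1*, *Col2a1*, *Col9a1*, *Col26a1*, *Loxl2*, *Loxl4* and *P4ha3*. *Col2a1*, *Col9a1* and *Col11a1* are collagens of cartilage. *P4ha1*, *Col6a4*, *Col1a2*, *Col4a5*, *Col16a1*, *Col9a2*, *Plod2*, *Col28a1*, *Col27a1*, *Col6a3*, *Col17a1*, *Col11a2* and *Col13a1* were counted but too low to test.

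Several low values need a limit beside them. *Col1a2*, the partner of the main type I chain, had 10, 2 and 6 counts in AdWT and 5, 3 and 6 in AdKO, while *Col3a1* had 47829 to 146800. *Col6a3*, the third chain of type VI collagen, had 4, 0 and 0 counts in AdWT and 1, 2 and 1 in AdKO, while *Col6a1* had 17401 to 32424. *Serpinh1* had 14, 8 and 8 counts in AdWT and 8, 13 and 13 in AdKO. These 3 genes were counted at a far lower level than chains and clients they are known to work with, in all 6 libraries alike. The 47 members had 96 rows in all. Of the members, 28 had several rows in the table, and the row with the highest total stood for each. Rows were at 0 in all libraries for 53.6% of rows of symbols with several rows and for 31.8% of rows of symbols with 1 row. *Pnpla2*, the triglyceride lipase of adipocytes, was also listed at 0 in every library, so a low count in this table was not read as low expression. How reads shared by rows were assigned is not given in the sources used here. *Col1a1*, *Col5a3*, *Col12a1*, *Col23a1*, *Col24a1*, *Col29a1*, *Col4a4*, *Col6a5* and *Lox* had no row under these symbols and were not analysed here.

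**Figure D1:**
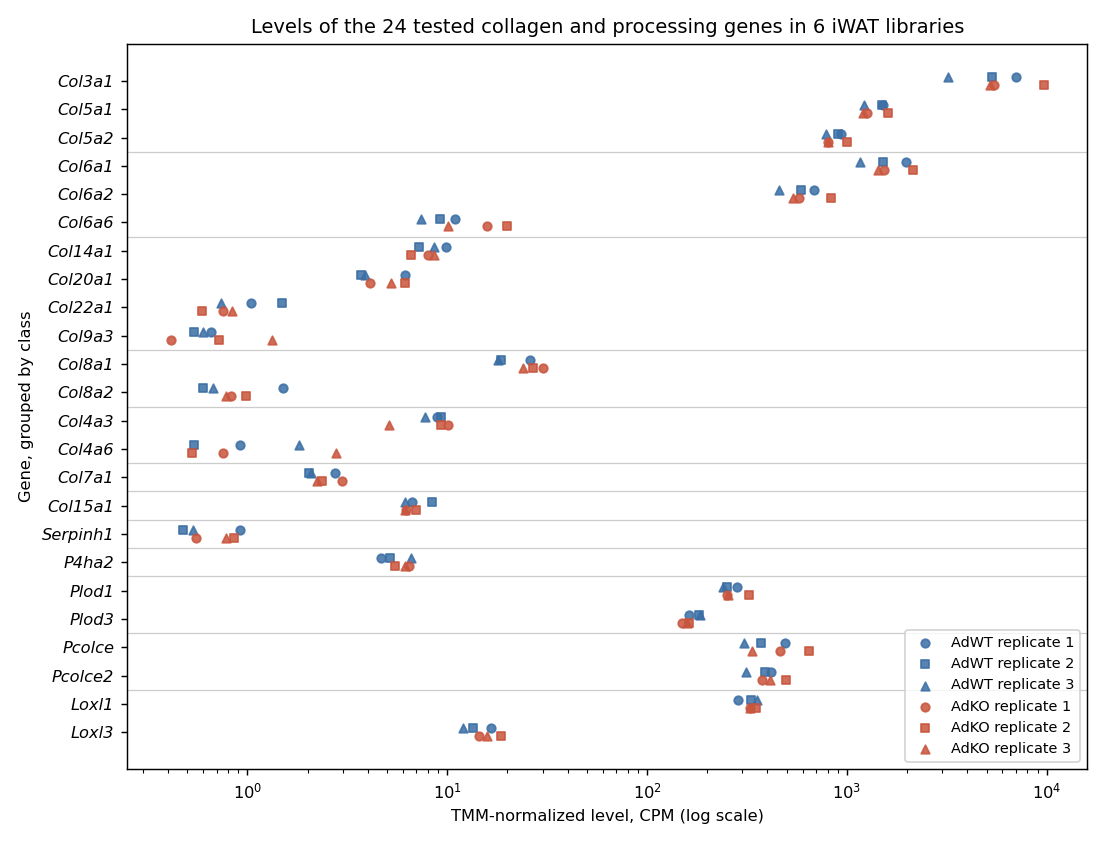
TMM-normalized level (CPM, log axis) of the 24 tested genes, grouped by class, with each point a library, blue for AdWT and red for AdKO, and the marker shape giving the replicate number. Levels ran from *Col3a1*, at 3200 to 9670 CPM, to genes near 1 CPM, and in every gene the points of the groups overlapped.

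Per kilobase of the longest annotated transcript, *Col3a1* was the highest of the 24 tested members at 1074 ± 392 CPM per kilobase (SD, n = 6). *Col6a1* followed at 396 ± 88.2, *Pcolce* at 169 ± 49.0, *Col5a1* at 165 ± 20.7, *Col5a2* at 131 ± 13.0 and *Col6a2* at 125 ± 26.6 on the same scale. The cross-linking enzyme *Loxl1*, at 98.5 ± 7.71, *Pcolce2*, at 90.3 ± 13.8, *Plod1*, at 65.1 ± 7.71, and *Plod3*, at 50.7 ± 4.07, completed the genes above 100 CPM before division by length. The other tested members had fewer counts, from *Col8a1*, at 4.67 ± 0.935 CPM per kilobase, down to *Col22a1*, at 0.103 ± 0.0366, and because a low count was not read as low expression they are not ordered here. Among the genes above 100 CPM, neighbours whose 6 values did not overlap were *Col3a1* and *Col6a1*, *Col6a1* and *Pcolce*, and *Plod1* and *Plod3*, and all other neighbours overlapped. The order depended on the length used. With the union of all annotated exons, *Col3a1* came to 712, *Pcolce* to 114, *Col5a2* to 90.8, *Col6a2* to 73.6 and *Plod1* to 39.4 CPM per kilobase. *Col3a1* and *Col6a1* stayed the highest, while *Col5a1*, at 163, was then above *Pcolce*, and *Loxl1*, at 98.5, above *Col5a2*.

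Among the fibrillar chains with enough counts to be tested, *Col3a1* carried most of the signal and most of the spread. *Col1a1* had no row and could not be compared. *Col3a1* was at 7027, 5294 and 3200 CPM in AdWT and at 5445, 9670 and 5221 CPM in AdKO. AdKO replicate 2 was the highest and AdWT replicate 3 the lowest, 3.02-fold apart, and the other 4 libraries lay between them in both groups. The log2 fold change of AdKO over AdWT was 0.39 (SE 0.334), with an unadjusted p of 0.280 by edgeR's quasi-likelihood test, and it was 0.037 without AdKO replicate 2 and 0.68 without AdWT replicate 1. *Col5a1*, the main type V chain, which sets fibril width, was at 1516, 1506 and 1219 CPM in AdWT and 1260, 1597 and 1208 CPM in AdKO. *Col5a2*, its partner chain, was at 935, 899 and 784 CPM in AdWT and 808, 997 and 801 CPM in AdKO. The type V chains thus spanned 1.32-fold and 1.27-fold over the 6 libraries, with AdKO replicate 2 again the highest. Their log2 fold changes were -0.061 (SE 0.138) for *Col5a1* and -0.0067 (SE 0.115) for *Col5a2*.

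Type VI chains followed *Col3a1* in the order of the libraries at its ends. *Col6a1* was at 1968, 1512 and 1164 CPM in AdWT and 1526, 2136 and 1425 CPM in AdKO, a log2 fold change of 0.13 (SE 0.221). *Col6a2* was at 686, 588 and 460 CPM in AdWT and 574, 833 and 536 CPM in AdKO, a log2 fold change of 0.16 (SE 0.202). In both, AdKO replicate 2 was the highest and AdWT replicate 3 the lowest, and the groups overlapped. *Col6a6*, a type VI chain related to *Col6a3*, had far fewer counts, with 167, 154 and 111 counts in AdWT and 230, 303 and 167 in AdKO. AdKO replicates 1 and 2 were above every AdWT library, while AdKO replicate 3 had the same count as AdWT replicate 1 and, after normalization, lay below it. *Col6a4*, which was not tested, had 12, 2 and 4 counts in AdWT and 2, 9 and 12 in AdKO.

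The remaining collagens were at 30 CPM or less. *Col8a1*, a short chain collagen of vessel walls, was counted at 397, 310 and 268 in AdWT and 436, 407 and 399 in AdKO. Only AdWT replicate 1 reached into the AdKO range, which it did after normalization, and the log2 fold change was 0.37 (SE 0.168, unadjusted p = 0.0604 by edgeR), or 0.56 without AdWT replicate 1. Its partner *Col8a2* had 23, 10 and 10 counts in AdWT and 12, 15 and 13 in AdKO. *Col14a1*, a FACIT collagen of fibril surfaces, had 151, 121 and 128 counts in AdWT and 117, 100 and 143 in AdKO, and *Col20a1*, of the same class, had 94, 62 and 58 in AdWT and 60, 93 and 87 in AdKO. Their log2 fold changes were -0.14 (SE 0.179) and 0.17 (SE 0.258), in opposite directions and each smaller than its error. *Col9a3* and *Col22a1*, the other FACIT members tested, had 6 to 25 counts per library and log2 fold changes of 0.47 (SE 0.459) and -0.58 (SE 0.353), the latter the most negative of the tested members. With 1 library left out at a time, the value of *Col14a1* lay between -0.26 and -0.027 (AdWT replicate 2 and AdWT replicate 1 omitted), that of *Col20a1* between 0.026 and 0.44 (AdKO replicate 2 and AdWT replicate 1 omitted), and that of *Col22a1* between -0.80 and -0.29 (AdWT replicate 3 and AdWT replicate 2 omitted).

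Basement membrane, anchoring fibril and multiplexin chains had group differences smaller than their errors. *Col4a3*, a chain of specialised basement membranes, had 135, 155 and 116 counts in AdWT and 147, 141 and 85 in AdKO. *Col4a6*, which lies beside *Col4a5* on the X chromosome, had 14, 9 and 27 counts in AdWT and 11, 8 and 46 in AdKO. Its highest values were in AdWT replicate 3 and AdKO replicate 3, the same libraries in which the epithelial markers stood at 20.27 and 47.95 CPM, and the part of that tissue in *Col4a6* was not tested. Without these libraries, its log2 fold change went from 0.34 (SE 0.688) to -0.17. *Col7a1*, the anchoring fibril chain made at epithelial borders, had 42, 34 and 31 counts in AdWT and 43, 36 and 37 in AdKO, with no excess in those libraries. *Col15a1*, a multiplexin of vessel and adipocyte basement membranes, was at 6.67, 8.37 and 6.16 CPM in AdWT and 6.19, 6.98 and 6.13 CPM in AdKO, a log2 fold change of -0.14 (SE 0.173). That value was -0.0011 without AdWT replicate 2 and -0.24 without AdWT replicate 3.

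All tested processing genes spanned less over the libraries than *Col3a1*, and *Pcolce* spanned most among them. *Pcolce* was at 492, 372 and 304 CPM in AdWT and 462, 646 and 335 CPM in AdKO, a 2.12-fold span with AdKO replicate 2 on top and AdWT replicate 3 at the bottom. *Pcolce2* was at 418, 388 and 311 CPM in AdWT and 377, 498 and 411 CPM in AdKO. The same libraries were its extremes, and the log2 fold changes of the enhancers were 0.30 (SE 0.257) and 0.20 (SE 0.141). Without AdKO replicate 2 they were 0.025 for *Pcolce* and 0.074 for *Pcolce2*.

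*Loxl1*, the lysyl oxidase known for elastic fibres, was at 284, 329 and 357 CPM in AdWT and 326, 351 and 326 CPM in AdKO. *Loxl3*, a further member of that family, was at 16.6, 13.5 and 12.0 CPM in AdWT and 14.4, 18.6 and 15.8 CPM in AdKO. AdWT replicate 3 was the highest library for *Loxl1* and the lowest for *Loxl3*, and the log2 fold changes were 0.048 (SE 0.0950) and 0.21 (SE 0.164). That of *Loxl3* was 0.099 without AdKO replicate 2 and 0.35 without AdWT replicate 1. *Plod1*, which hydroxylates lysines of the helix, was at 284, 250 and 240 CPM in AdWT and 250, 324 and 253 CPM in AdKO, a log2 fold change of 0.095 (SE 0.120). *Plod3*, which also adds sugars to the hydroxylated lysines, was at 162, 181 and 183 CPM in AdWT and 150, 162 and 159 CPM in AdKO. The highest AdKO value of *Plod3*, in replicate 2, passed the lowest AdWT value, in replicate 1, by less than 1 CPM, and the log2 fold change was -0.16 (SE 0.0745, unadjusted p = 0.0639 by edgeR).

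*P4ha2*, an alpha subunit of the prolyl 4-hydroxylase that makes the helix heat-stable, had 71, 86 and 98 counts in AdWT and 94, 83 and 102 in AdKO, a log2 fold change of 0.14 (SE 0.185), which was 0.043 without AdWT replicate 1 and 0.29 without AdWT replicate 3. *P4ha1*, the other alpha subunit with counts, had 10, 11 and 10 counts in AdWT and 3, 7 and 3 in AdKO, and was named after its values were seen. It failed the filter on low counts, so no test was made of it in the main comparison. *Plod2* had 1 to 5 counts per library.

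Across the 24 tested members, 0 had an adjusted p under 0.05 by edgeR's quasi-likelihood test, as did 0 of all 9872 rows tested (0%). The smallest adjusted p of a member was 0.851. At an unadjusted p under 0.05 there was 1 member, *Col6a6*, or 4.17% of them, beside 566 of 9872 rows (5.73%), and beside 272 rows (2.76%) in the direction of *Col6a6*. In 0 of the 24 did the groups fail to overlap, against 1173 of all rows (11.9%). The shares of members were thus near or below those of all rows, and DESeq2 gave the same 1 member at an unadjusted p under 0.05.

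More members had a positive than a negative difference, none past the adjusted threshold. Of the tested members 16 were higher and 8 lower in AdKO and their median log2 fold change was 0.14, while 51.7% of all rows were higher and their median was 0.0071. Collagen chains split into 9 higher and 7 lower (median 0.13), and processing genes into 7 higher and 1 lower, *Plod3* (median 0.17). Members share libraries, so these counts are not independent of each other, and without AdKO replicate 2 they were 14 higher and 11 lower among 25 tested. The median was then 0.025, and it was 0.056 without AdWT replicate 2, 0.068 without AdWT replicate 3, 0.22 without AdKO replicate 1, 0.29 without AdWT replicate 1 and 0.086 without both libraries with epithelial markers. In bulk RNA, fewer cells of a type and less RNA per cell cannot be told apart.

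**Figure D2:**
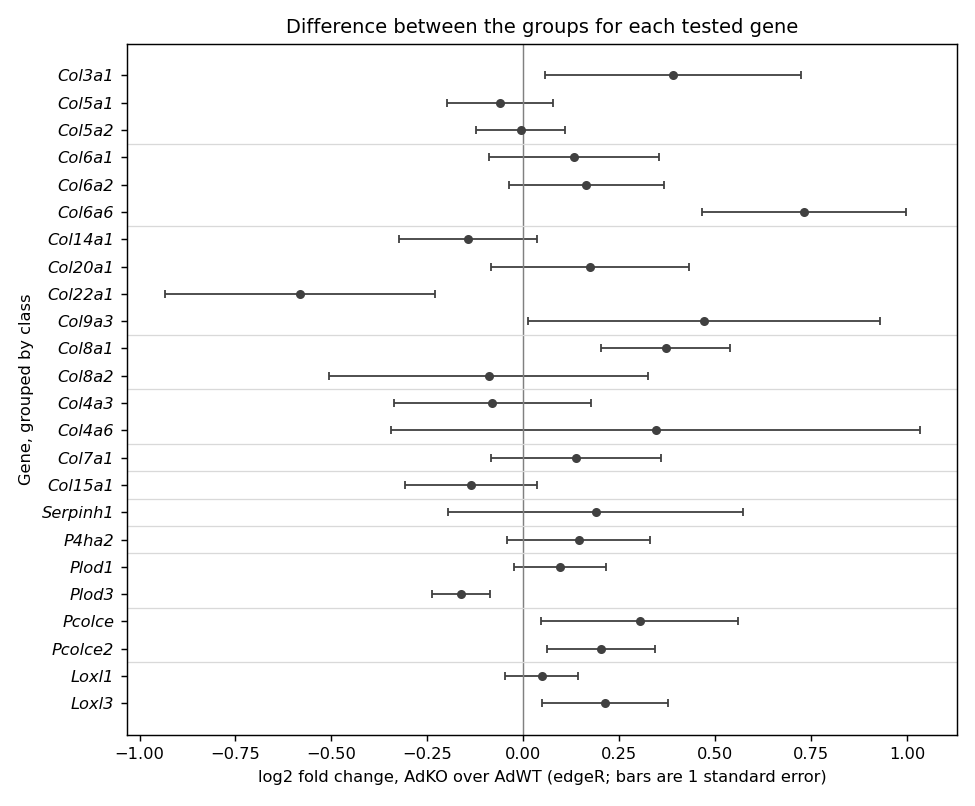
Log2 fold change of AdKO over AdWT from edgeR for the 24 tested genes, grouped by class, with bars of 1 standard error. Values ran from -0.58 for *Col22a1* to 0.73 for *Col6a6*, and the error bars were longest for genes with few counts, such as *Col4a6*.

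*Col6a6* had the largest positive log2 fold change of the tested members, 0.73 (SE 0.266), with an unadjusted p of 0.0271 and an adjusted p of 0.851 by edgeR. The estimate was 0.48 without AdKO replicate 2 and 0.96 without AdKO replicate 3, and its unadjusted p exceeded 0.05 without AdWT replicate 2, AdWT replicate 3, AdKO replicate 1 or AdKO replicate 2. Its ratio to *Col6a1* within a library, a measure added after the values were seen and not tested, was 0.00555, 0.00609 and 0.00638 in AdWT and 0.0104, 0.00934 and 0.00704 in AdKO. Every AdKO ratio was above every AdWT ratio. *Col8a1* and *Plod3* were the next members by unadjusted p, and both passed 0.05 by edgeR only where AdWT replicate 1 was left out, or, for *Col8a1*, where all rows with a count were kept or the replicate number was a block.

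**Figure D3:**
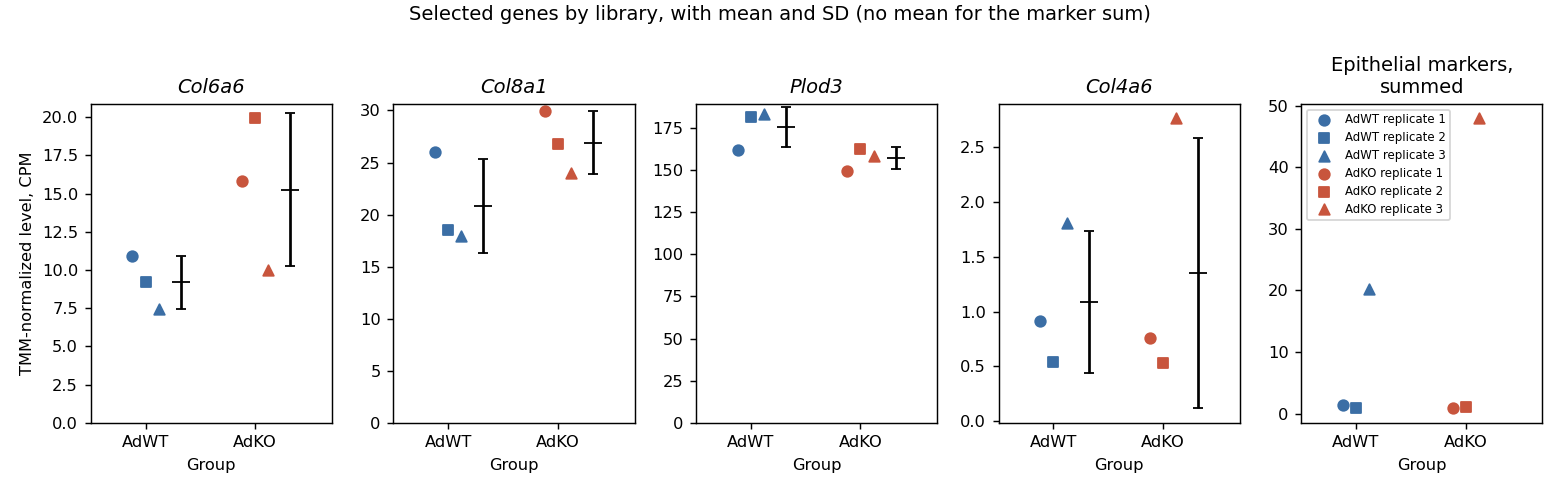
TMM-normalized level (CPM, linear axes) of *Col6a6*, *Col8a1*, *Plod3* and *Col4a6* and the summed level of 5 epithelial markers, one point per library, with the mean and SD of each group beside the points of the genes. *Col4a6* and the epithelial sum share their highest libraries, AdKO replicate 3 and AdWT replicate 3, while *Col6a6* is highest in AdKO replicate 2.

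The same libraries held the highest and the lowest value of most of the abundant members. AdKO replicate 2 was the highest library in 8 of the 10 members above 100 CPM, against 17.5% of the 1530 rows above that level. AdWT replicate 3 was the lowest in 7 of the 10, against 21.5% of those rows. The 2 exceptions at the top were *Loxl1* and *Plod3*, both highest in AdWT replicate 3. The SD of log2 CPM over the 6 libraries was 0.529 for *Col3a1*, larger than in 98.9% of rows above 100 CPM. It was 0.402 for *Pcolce*, 0.320 for *Col6a1* and 0.296 for *Col6a2*, each larger than in 92.7% of such rows or more. *Loxl1* and *Plod3*, at 0.116 and 0.115, were close to the median row, at 0.113. Among these 10 genes the largest spreads were thus those of *Col3a1*, *Pcolce* and the type VI chains.

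The ratios of *Col5a1* to *Col5a2* and of *Col6a1* to *Col6a2* varied little while the levels moved. The ratio of *Col5a1* to *Col5a2* counts was 1.62, 1.68 and 1.55 in AdWT and 1.56, 1.60 and 1.51 in AdKO, with a coefficient of variation of 3.71% over the 6 libraries. The ratio of *Col6a1* to *Col6a2* was 2.87, 2.57 and 2.53 in AdWT and 2.66, 2.56 and 2.66 in AdKO, with a coefficient of variation of 4.66%. The ratio of *Col8a1* to *Col8a2*, which rests on 10 to 23 counts of the latter, was 17.3 to 36.3, with a coefficient of variation of 22.6%. None of these group differences passed a two-sided exact permutation test, with p = 0.3, 0.9 and 0.2 and adjusted p = 0.45, 0.9 and 0.45 in the same order, in a design that cannot go below 0.1. Only these 3 of 9 intended ratios had at least 10 counts of both genes in every library.

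The ratios of *Col3a1*, the abundant member with the largest spread, to *Col5a2* and *Col6a1* varied more than the type V and type VI ratios. They were added after the values were seen and were not tested. *Col3a1* over *Col5a2* was 7.51, 5.89 and 4.08 in AdWT and 6.74, 9.69 and 6.52 in AdKO, a coefficient of variation of 27.5%. These genes are neighbours on chromosome 1, *Col3a1* at 45368383 to 45406551 on the plus strand and *Col5a2* at 45431166 to 45560127 on the minus strand. *Col3a1* over *Col6a1* was 3.57, 3.50 and 2.75 in AdWT and 3.57, 4.53 and 3.66 in AdKO, a coefficient of variation of 15.7%. In both, the highest library was AdKO replicate 2 and the lowest AdWT replicate 3, and the groups overlapped.

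**Figure D4:**
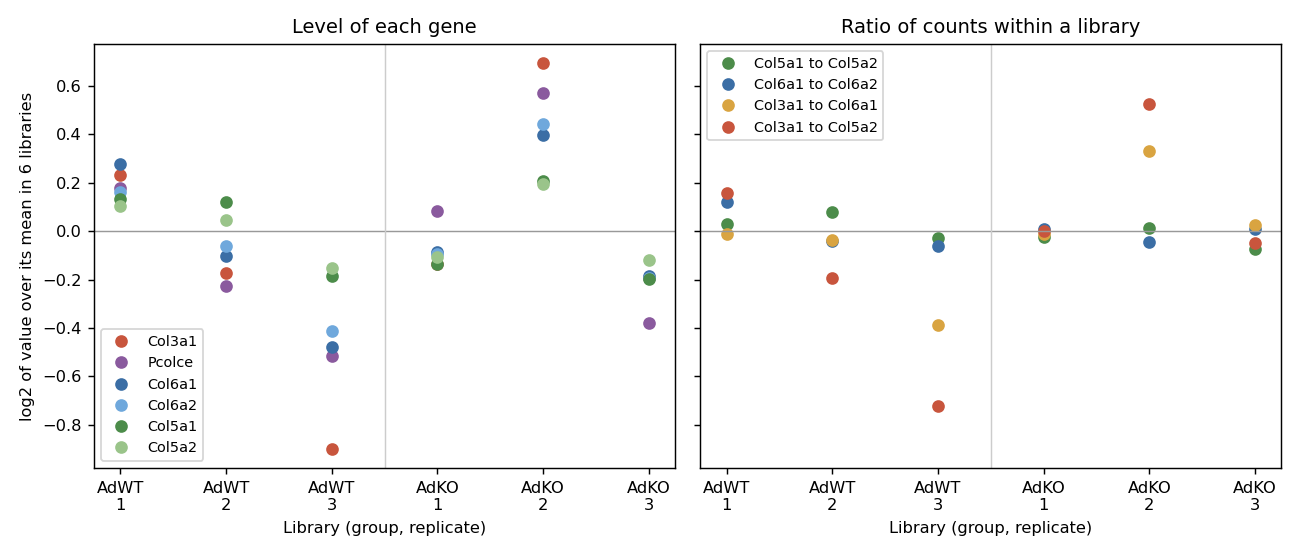
Left, log2 of each gene's CPM over its mean in the 6 libraries; right, the same for ratios of counts within a library; one point per gene or ratio and library, with AdWT left of the grey line. *Col3a1* spreads most on the left, and on the right the *Col5a1* to *Col5a2* and *Col6a1* to *Col6a2* ratios stay near 0 while the ratios that hold *Col3a1* spread.

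Summed by class, the groups overlapped throughout, and the exact permutation test of 3 against 3 libraries cannot give a p below 0.1, so no class could pass 0.05. Fibrillar chains summed to 7461 ± 2148 CPM in AdWT and 9003 ± 2829 CPM in AdKO (SD, n = 3 each; exact permutation p = 0.6). Beaded filament chains summed to 2135 ± 517 and 2359 ± 551 CPM (exact permutation p = 0.6), and the C-proteinase enhancers to 762 ± 147 and 909 ± 209 CPM (exact permutation p = 0.5). The means of the lysyl hydroxylases, at 434 ± 11.0 and 433 ± 47.1 CPM, and of the lysyl oxidases, at 337 ± 34.5 and 351 ± 16.4 CPM, lay within 1 SD of each other. The short chain network collagens, at 22.3 ± 5.04 and 28.6 ± 2.76 CPM, had the smallest p, an exact permutation p of 0.2. FACIT, basement membrane, anchoring fibril and multiplexin collagens and the prolyl 4-hydroxylase subunits had exact permutation p-values from 0.5 to 0.9. Over the 11 sums all adjusted p-values were at least 0.978. These sums leave out genes without a row, such as *Col1a1*, *Col5a3*, *Col24a1* and *Lox*. *Col1a2* and *Col6a3* entered them with very few counts. The fibrillar difference rested on *Col3a1*: the log2 difference of the sum was 0.27 with it and -0.044 without it. It also rested on single libraries, at 0.025 without AdKO replicate 2 and 0.032 without AdWT replicate 3, and the enhancer sum went from 0.25 to 0.072 without AdKO replicate 2.

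Among other genes of the collagen pathway, none had an adjusted p under 0.05, and *Postn*, *Sec24d*, *Fmod* and *Tll1* had groups that did not overlap after normalization, as 11.9% of all rows did. Of 14 tested genes of procollagen folding and secretion, 10 were higher and 4 lower in AdKO (median log2 fold change 0.073). *Sec24d*, a coat protein of the vesicles that export procollagen, was the only one with an unadjusted p under 0.05 by edgeR, 1 of 14 beside 5.73% of all rows, with 330, 417 and 309 counts in AdWT and 259, 262 and 324 in AdKO, a log2 fold change of -0.30 (SE 0.115). *P4hb*, the common beta subunit of the prolyl 4-hydroxylases, ran from 15680 to 18891 counts, with a log2 fold change of 0.016 (SE 0.0786). The propeptide proteinases *Tll1* and *Bmp1* had log2 fold changes of 0.43 (SE 0.194) and 0.40 (SE 0.236), and *Tll1*, with 118, 129 and 79 counts in AdWT and 118, 153 and 161 in AdKO, did not overlap after normalization.

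Among 5 tested collagen receptors, 1 was higher and 4 were lower in AdKO (median -0.25), with 0 of 5 at an unadjusted p under 0.05 by edgeR. *Mrc2*, the endocytic collagen receptor, had 10904, 12793 and 8029 counts in AdWT and 8176, 9201 and 8775 in AdKO, and *Itga1*, an integrin subunit that binds collagen, 784 to 1728. Of 4 small leucine-rich proteoglycans, which bind fibrils, *Fmod* was lower, with 282, 285 and 260 counts in AdWT and 150, 209 and 261 in AdKO, a log2 fold change of -0.41 (SE 0.165, unadjusted p = 0.0402 by edgeR, the only 1 of 4 under 0.05), and the other 3 were higher. *Lum*, of the same family, had its lowest count, 2365, in AdWT replicate 3 and its highest, 8496, in AdKO replicate 2, the same extremes as *Col3a1*. Of 12 elastic fibre and matricellular genes, 8 were higher and 4 lower (median 0.11). *Postn*, a matricellular protein of remodelled tissue, had 7, 7 and 5 counts in AdWT and 16, 11 and 20 in AdKO, a log2 fold change of 1.31 (SE 0.356, unadjusted p = 0.00723 by edgeR, the only 1 of 12 under 0.05). These counts of 0 of 5, 1 of 4 and 1 of 12 stand beside 5.73% of all rows.

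Markers of the cells in the depot differed between libraries, and the sums for adipocytes and skeletal muscle did not overlap between the groups. The summed level of the fibroblast and progenitor markers with a row, 13 of 16 listed, was 3024 to 4572 CPM in AdWT and 3255 to 4085 CPM in AdKO, highest in AdWT replicate 3. *Dpt* carried most of this sum. Without it the markers summed to 643, 618 and 537 CPM in AdWT and 737, 726 and 629 CPM in AdKO. They were then highest in AdKO replicate 1 and lowest in AdWT replicate 3, as 7 of the 10 members above 100 CPM were. Of the 10 tested fibroblast and progenitor markers, 5 were higher and 5 lower in AdKO. *Clec3b*, which was higher, was the only 1 with an unadjusted p under 0.05 by edgeR, beside 5.73% of all rows. Its groups did not overlap, as in 11.9% of all rows. Macrophage markers, with 6 of 8 having a row and *Emr1* at 0, summed to 402 to 793 CPM in AdWT and 665 to 821 CPM in AdKO. They were lowest in AdWT replicate 3 and highest in AdKO replicate 2, as *Col3a1* was, though without *Mrc1*, the highest of them, AdWT replicate 1 was highest. Of the 4 tested, 3 were higher in AdKO. *Mertk* was lower, without overlap, and was the only 1 with an unadjusted p under 0.05 by edgeR, beside 5.73% of all rows. Adipocyte markers, 8 of 10 with a row and *Pnpla2* at 0, summed to 46237 to 54700 CPM in AdWT and 41411 to 42082 CPM in AdKO, and were highest in AdWT replicate 3. Of the 7 tested, 6 were lower in AdKO, 2 of them, *Lep* and *Cd36*, with an unadjusted p under 0.05 by edgeR, beside 5.73% of all rows, and 0 with an adjusted one. Skeletal muscle markers, 15 of 20 with a row and *Myh4* and *Tnnt3* at 0, summed to 42.0 to 226 CPM in AdWT and 34.4 to 35.5 CPM in AdKO, with 226 CPM in AdWT replicate 2 alone. Of the 10 tested, 9 were lower in AdKO, 7 of them with an unadjusted p under 0.05 by edgeR, beside the same 5.73% of all rows, and 0 with an adjusted one, and without *Casq1*, the highest of them, the sums were 47.3, 208 and 32.8 CPM in AdWT and 16.5, 12.6 and 18.1 CPM in AdKO. Tendon and cartilage markers, 11 of 12 with a row, summed to 22.7 to 27.6 and 20.3 to 33.5 CPM. Smooth muscle and mural markers summed to 319.5 to 519.7 CPM in AdWT and 432 to 482 CPM in AdKO. Endothelial markers summed to 880 to 1286 and 863 to 1225 CPM, highest in AdWT replicate 1 and lowest in AdKO replicate 3. Without *Cdh5*, the highest of them, they were highest in AdKO replicate 2, at 130.9 CPM, and lowest in AdWT replicate 3, at 90.3 CPM. AdWT replicate 1 was then at 130.7 CPM. Schwann cell markers summed to 105 to 156 and 117 to 142 CPM, and lymphocyte markers to 7.56 to 22.6 and 9.62 to 17.0 CPM. The part of any of these cell types in the collagen levels was not tested.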

How the data were processed

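RNA from iWAT was sequenced from a stranded library kit, and per the labels and methods the authors used HISAT2 and the mm9 build for alignment. The deposited table holds raw counts per row, without normalization. The counter, its annotation and its strand setting are not given in the sources used here, so overlapping genes and antisense partners may share reads. Counts were tested with edgeR 4.0.16 in R 4.3.3 (filterByExpr by group, TMM, glmQLFit and glmQLFTest) over 9872 rows. Benjamini-Hochberg adjustment was used, with a threshold of 0.05. The edgeR p-values set the group difference against the spread between the 3 libraries within each group, estimated with information shared over all rows. Standard errors were log2 fold changes over the square root of F. The common biological coefficient of variation was 0.196. CPM used TMM library sizes. Class sums and ratios, as log2 with 0.5 added, were compared by two-sided exact permutation tests in Python 3.11.15. The fits were also run on simulated counts with changes larger than those of any tested member, so that run does not bear on small differences. Genes, transcript lengths and sequences came from GENCODE vM1 on NCBIM37, where 46 of 47 symbols matched. Values by library are given for members with an unadjusted p under 0.05 or without overlap, and for the 2 with the highest level per kilobase of each class. From the lists of other pathway genes, genes were named by smallest p under 0.05, or else by level. That rule did not cover the cell type markers. Some other genes are named for their place in the text, after their values were seen. The members and lists were chosen with earlier results of these data known. Alternatives were DESeq2 1.42.0, other scalings, filters, a robust fit, a replicate block, summed rows, another pseudocount, another length and each library left out. 2 alternatives were chosen after seeing the data: DESeq2 with independent filtering at 0.05 in place of its default, and leaving out both libraries with epithelial markers.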

Additional observations from a re-analysis of the deposited data

How the results depend on the processing

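No member reached an adjusted p under 0.05 under any alternative. At an unadjusted p under 0.05, the count of members was 3 where rows with at least 1 count were kept (*Col6a6*, *Col8a1* and *P4ha1*, 7.89% of 38 members against 4.32% of all rows) and 1, *Col6a6*, under each other scaling, filter or tool. Left out 1 at a time, the libraries gave 0 to 3 members (3 without AdWT replicate 1, 12.0% against 11.8% of all rows, 0 without AdWT replicate 2, AdWT replicate 3, AdKO replicate 1 or AdKO replicate 2), 329 to 1208 rows and 0 to 1 rows with an adjusted p under 0.05. Over all rows, calls at an adjusted p under 0.05 were 17 with DESeq2 at its defaults, 27 with independent filtering at 0.05, 1 with at least 1 count and 1 without both libraries with epithelial markers, where *Col4a3* was at 0.099 and *Col4a6* at -0.17.

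With the replicate block, 2 members (*Col6a6* and *Col8a1*) had an unadjusted p under 0.05, 8.33% of members against 4.23% of all rows, and the median over members was 0.15. The correlations of same-numbered libraries were -0.10, -0.12 and 0.35, and those of other pairs ran from -0.34 to 0.45. So few values cannot settle whether the numbers pair the samples. No other call changed.

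The sums of short chain network collagens, C-proteinase enhancers and anchoring fibril collagen kept their sign in all settings, at 0.17 to 0.55, 0.072 to 0.39 and 0.015 to 0.23. Other class differences turned sign: with library size only, FACIT collagens to 0.013, basement membrane collagens to 0.021 and lysyl hydroxylases to 0.039, and without the highest member, FACIT to 0.078, basement membrane to 0.13, fibrillar to -0.044 and prolyl 4-hydroxylases to -0.59. Library size only moved the median of all rows to 0.054. Leaving out 1 library gave fibrillar 0.025 to 0.46, FACIT -0.12 to 0.11, basement membrane -0.12 to 0.091, beaded filament -0.035 to 0.32, lysyl hydroxylases -0.096 to 0.046, lysyl oxidases -0.021 to 0.13, multiplexin -0.20 to 0.00251 and prolyl 4-hydroxylases -0.038 to 0.17, the *Col6a1* to *Col6a2* ratio -0.048 to 0.042, receptors -0.25 to -0.10 and elastic fibre genes 0.055 to 0.24. Single genes turned sign too: *Col4a3* -0.26 to 0.17, *Col4a6* -0.74 to 0.91, *Col5a1* -0.20 to 0.015, *Col5a2* -0.12 to 0.049, *Col9a3* -0.065 to 0.77, *Col6a1* -0.076 to 0.34, *Col6a2* -0.065 to 0.31, *Col8a2* -0.34 to 0.45, *Loxl1* -0.036 to 0.12 and *Plod1* -0.044 to 0.17. The proteoglycan median was -0.19 with both DESeq2 settings and -0.18 with at least 1 count. Per kilobase of the exon union, *Pcolce* was at 114, *Col5a2* at 90.8 and *Col6a2* at 73.6. The cause was not tested.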

Other observations

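Rows of a symbol other than the one with the highest total were tested for 4 members. *Plod1* had a further row with 41, 42 and 40 counts in AdWT and 64, 54 and 53 in AdKO, a log2 fold change of 0.50 (SE 0.193) with an unadjusted p of 0.0347 and an adjusted p of 0.851 by edgeR. Its groups did not overlap, whereas the main row of *Plod1*, with 3591 to 4917 counts, overlapped at a log2 fold change of 0.095. None of the further rows of the other members had an unadjusted p under 0.05 or groups without overlap. Of all rows tested, 5.73% had an unadjusted p under 0.05 by edgeR and 11.9% had groups without overlap. *Col6a2* had 2 further rows with log2 fold changes of 0.12 (SE 0.129) and 0.35 (SE 0.194), *P4ha2* had 1 at 0.31 (SE 0.255) and *Col5a2* had 1 at 0.37 (SE 0.322). The main rows of these genes were at 0.16, 0.14 and -0.0067 in the same order. What separates the rows of a symbol is not given in the sources used here.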
